A study of Mus with 8 samples.

Results

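This is an account of 8 mouse liver genes that control the transcription factor SREBP2 or move cholesterol into, within and out of hepatocytes: Srebf2, Scap, Insig1, Insig2, Mylip, Stard4, Abcg5 and Abcg8. They were taken by name from a table of 54532 genes, and all 8 were among the 11729 genes left to test after a filter on low counts. Liver RNA was sequenced as 8 mRNA libraries, 4 from a group labelled DSSHA, whose treatment is given as alcohol, a high-fat diet and dextran sulfate sodium (DSS; libraries 35, 45, 65 and 71), and 4 from a group labelled DSS (libraries 15, 48, 49 and 50). DSS injures the colonic epithelium when swallowed. Both groups received it at 2.5%, it was stopped on day 6, and the second intervention followed. The sample labels name only DSS for the DSS group and do not say which feed it ate. The study's design text describes a purified high-fat feed for some mice and a high-fat feed with alcohol for others, without tying either to a sample, so the DSS group may also have eaten high-fat feed. Whether the groups differ in alcohol alone or also in feed is therefore not known, and the parts of diet and alcohol cannot be told apart. No strain, sex or age was used here. Livers of mice without DSS were not analysed here. The labels number the libraries without tying each number to a mouse, so p-values here refer to the spread among libraries, which may be technical.

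SREBP2, the product of Srebf2, is made as an inactive precursor in the membrane of the endoplasmic reticulum, where it is bound to the sterol-sensing escort protein SCAP. When sterols are plentiful, INSIG1 and INSIG2 hold the SCAP and SREBP complex in the endoplasmic reticulum; when sterols are scarce, the complex moves to the Golgi, proteases release the active factor, and genes of cholesterol synthesis and uptake are transcribed. Insig1 is itself a target of SREBPs, whereas the liver form of Insig2 is not, and is repressed by insulin. MYLIP, also known as IDOL, is a ubiquitin ligase that lowers the uptake of lipoproteins by cells and is induced by the oxysterol receptors LXR in many cells. STARD4 carries sterol between membranes in the cytosol. ABCG5 and ABCG8 are ABC transporter subunits that pair to export sterols from the hepatocyte into bile.

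The libraries held 12502300 to 16967839 counts, of which mitochondrially encoded transcripts took 30.2 to 73.0% in the DSSHA group and 55.8 to 79.1% in the DSS group (means 45.2 and 65.2%, exact two-sided permutation p = 0.143, n = 4 each). In library 35 only 784 genes held between 1 and 9 counts, where the remaining 7 had 4319 to 4987 such genes, and values without library 35 are therefore also given where leaving it out changes a call or a direction. All 8 hepatocyte markers listed were detected, among them Alb and Ttr, and none passed the test. Their summed level was 29300 to 37879 CPM (counts scaled to normalized library size) in the DSSHA group and 43724 to 68849 CPM in the DSS group. Most of this sum was Alb, at 18457 ± 3871 CPM in the DSSHA group and 42304 ± 8921 CPM in the DSS group (SD, n = 4 each; edgeR adjusted p = 0.115). Fgb, a fibrinogen chain, differed the other way without overlap, at 6728 ± 1705 CPM in the DSSHA group and 3096 ± 509 CPM in the DSS group (edgeR adjusted p = 0.0938). Of 6 neutrophil markers, 4 could be tested and 3 rose, with sums of 28.9 to 58.6 CPM in the DSSHA group and 3.95 to 14.5 CPM in the DSS group. None of the 6 was at 0 in all libraries. No tested marker of cholangiocytes, macrophages, sinusoidal endothelium, stellate cells, enterocytes or erythroid cells passed the test, and no T or B cell marker had enough counts to be tested. The mitochondrial share was entered as a covariate in a further fit, whose values are given below; the part of the other differences in the results was not tested. In whole tissue fewer cells of a type and less RNA per cell cannot be told apart.

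Of the 8 genes, 1 rose in the DSSHA group, Insig1, and the other 7 were not past the threshold in either direction (edgeR quasi-likelihood F test, Benjamini-Hochberg adjusted p under 0.05 over all genes tested). Over all genes tested 1.26% passed, 0.588% upward and 0.674% downward. The median log2 fold change of the 8 was -0.30, and that of all genes tested was -0.01. In 2 of the 8, Insig1 and Stard4, every DSSHA library lay above every DSS library; 4.14% of all genes tested had such a separation upward, and 8.77% in either direction. The 3 genes with positive values were Insig1, Stard4 and Srebf2, 2 of them known targets of SREBP2 and the third the gene of the factor itself. The 5 with negative values were Insig2, Abcg5, Abcg8, Scap and Mylip.

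**Figure D1:**
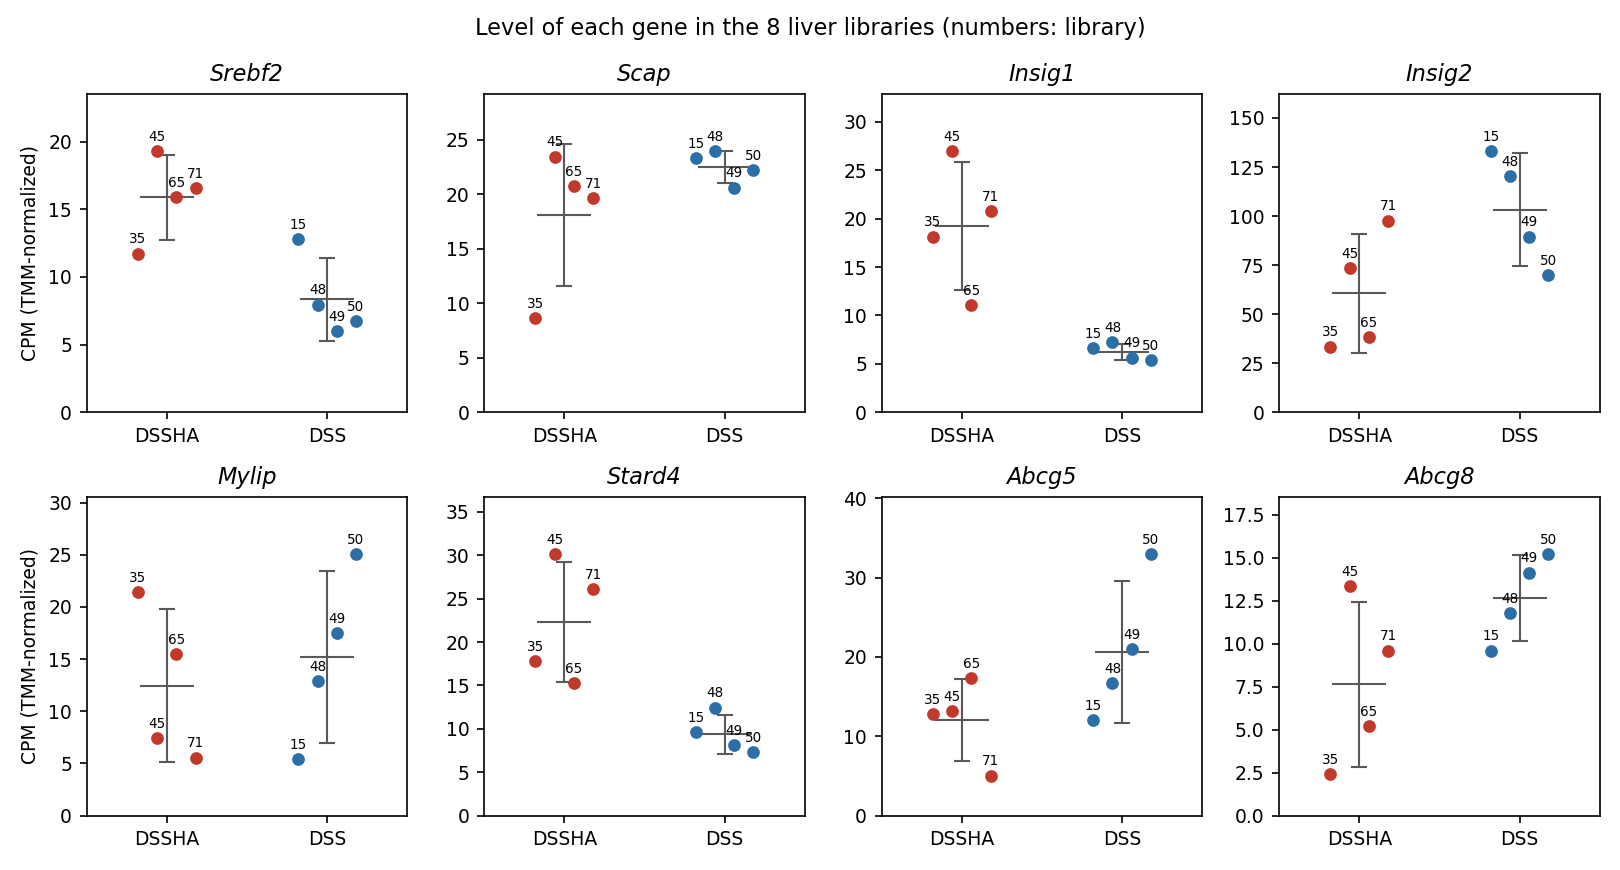
Level of each gene in CPM (vertical axes, from 0) in the 4 DSSHA and 4 DSS libraries; points are libraries with their numbers, and bars are the mean and SD. Insig1 and Stard4 are the genes whose DSSHA points all lie above all DSS points; Mylip ranges from 5.42 to 25.0 CPM within the DSS group alone.

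Srebf2 (ENSMUSG00000022463, chromosome 15, 82147181 to 82205379, GRCm38) had 11.7, 19.3, 15.9 and 16.5 CPM in DSSHA libraries 35, 45, 65 and 71, against 12.8, 7.93, 5.99 and 6.70 CPM in DSS libraries 15, 48, 49 and 50. Of the DSSHA libraries 3 lay above every DSS library, and the groups overlapped only through DSSHA library 35 and DSS library 15. Srebf2 averaged 15.9 ± 3.14 CPM in the DSSHA group and 8.35 ± 3.06 CPM in the DSS group (SD, n = 4 each). The log2 fold change was 0.91 ± 0.29 (SE; 95% interval 0.29 to 1.54), which did not pass over all genes (edgeR adjusted p = 0.188). The microRNA gene Mir33, which lies inside Srebf2 on the same strand and whose product targets Abca1, was listed at 0 counts in all 8 libraries. Because mRNA libraries do not measure mature microRNA, this count does not show whether Mir33 was expressed.

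Scap (ENSMUSG00000032485, chromosome 9, 110333288 to 110384950), the escort and sterol sensor, was the most even of the 8 within the DSS group. It had 8.62, 23.5, 20.8 and 19.6 CPM in DSSHA libraries 35, 45, 65 and 71, against 23.3, 24.0, 20.6 and 22.2 CPM in DSS libraries 15, 48, 49 and 50. Library 35 stood far below the other 7, which overlapped. The log2 fold change was -0.32 ± 0.29 (95% interval -0.94 to 0.31; edgeR adjusted p = 0.754), or -0.08 without library 35.

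The balance of the transcripts for the precursor and its escort was taken within each library. It is the ratio of their counts per kb of the listed gene length, which needs no scaling between libraries. The Srebf2 to Scap ratio was 1.40, 0.853, 0.794 and 0.873 in DSSHA libraries 35, 45, 65 and 71, against 0.569, 0.343, 0.303 and 0.315 in DSS libraries 15, 48, 49 and 50. The groups did not overlap, and Srebf2 transcripts outnumbered those of Scap per kb only in library 35. The mean log2 ratio was -0.07 ± 0.38 in the DSSHA group and -1.44 ± 0.42 in the DSS group (SD, n = 4 each), a 2.58-fold difference (exact two-sided permutation p = 0.0286, the smallest that 4 against 4 allows; 0.0429 adjusted over the 3 ratios examined). Without library 35 the groups still did not overlap, the difference was 1.18 on the log2 scale, and the adjusted exact p was 0.0857.

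Insig1 (ENSMUSG00000045294, chromosome 5, 28071363 to 28078662) rose. It had 18.1, 27.0, 11.0 and 20.8 CPM in DSSHA libraries 35, 45, 65 and 71, against 6.61, 7.22, 5.63 and 5.36 CPM in DSS libraries 15, 48, 49 and 50. The lowest DSSHA library, 65, still lay above the highest DSS library. Insig1 averaged 19.2 ± 6.60 CPM in the DSSHA group and 6.21 ± 0.864 CPM in the DSS group (SD, n = 4 each), 3.09-fold higher, with a log2 fold change of 1.63 ± 0.29 (95% interval 1.0 to 2.26; edgeR adjusted p = 0.0174). It stood at place 89 of the 11729 genes ordered by p. The authors' deposited table lists Insig1 with a log2 fold change of 1.63 and an adjusted p of 0.000149. The call was lost without DSSHA library 45 (edgeR adjusted p = 0.0672) or DSS library 48 (0.0716), 49 (0.0891) or 50 (0.0929), with log2 fold changes of 1.42 to 1.71 in these 4 fits. A fit that took each library's mitochondrial share as covariate also lost it (log2 fold change 1.11, edgeR adjusted p = 0.147).

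Insig2 (ENSMUSG00000003721, chromosome 1, 121304353 to 121332589), the other retention protein, was the most abundant of the 8 per kb in every library. It had 33.4, 73.3, 38.3 and 97.7 CPM in DSSHA libraries 35, 45, 65 and 71, against 133, 120, 89.4 and 69.9 CPM in DSS libraries 15, 48, 49 and 50. Libraries 35 and 65 lay below all DSS libraries, while 45 and 71 lay within their range. The means were 60.7 ± 30.4 CPM in the DSSHA group and 103 ± 28.8 CPM in the DSS group, and the log2 fold change of -0.77 ± 0.35 did not pass (95% interval -1.54 to 0.01; edgeR adjusted p = 0.437). In the fit with the mitochondrial covariate it was -1.39, again without passing.

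The balance of the transcripts for the 2 retention proteins was examined in the same way, and no protein was measured. Per kb, the Insig1 to Insig2 ratio was 0.610, 0.414, 0.325 and 0.239 in DSSHA libraries 35, 45, 65 and 71, against 0.0560, 0.0677, 0.0714 and 0.0873 in DSS libraries 15, 48, 49 and 50. The lowest DSSHA ratio, in library 71, exceeded the highest DSS ratio, in library 50, and Insig2 remained the more abundant transcript in all 8. The mean log2 ratio was -1.42 ± 0.57 in the DSSHA group and -3.84 ± 0.26 in the DSS group (SD, n = 4 each), a 5.36-fold difference (exact two-sided permutation p = 0.0286; 0.0429 adjusted over the 3 ratios). Leaving out a library gave differences of 2.19 to 2.64 on the log2 scale. Without library 35, 45 or 71 the adjusted exact p was 0.0857 for this ratio and for that of Srebf2 to Scap. The groups still did not overlap in either ratio. For Insig1 to Insig2 the exact p before adjustment was then the smallest that the remaining libraries allow. Its adjusted value also depends on the p of the other ratios.

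**Figure D2:**
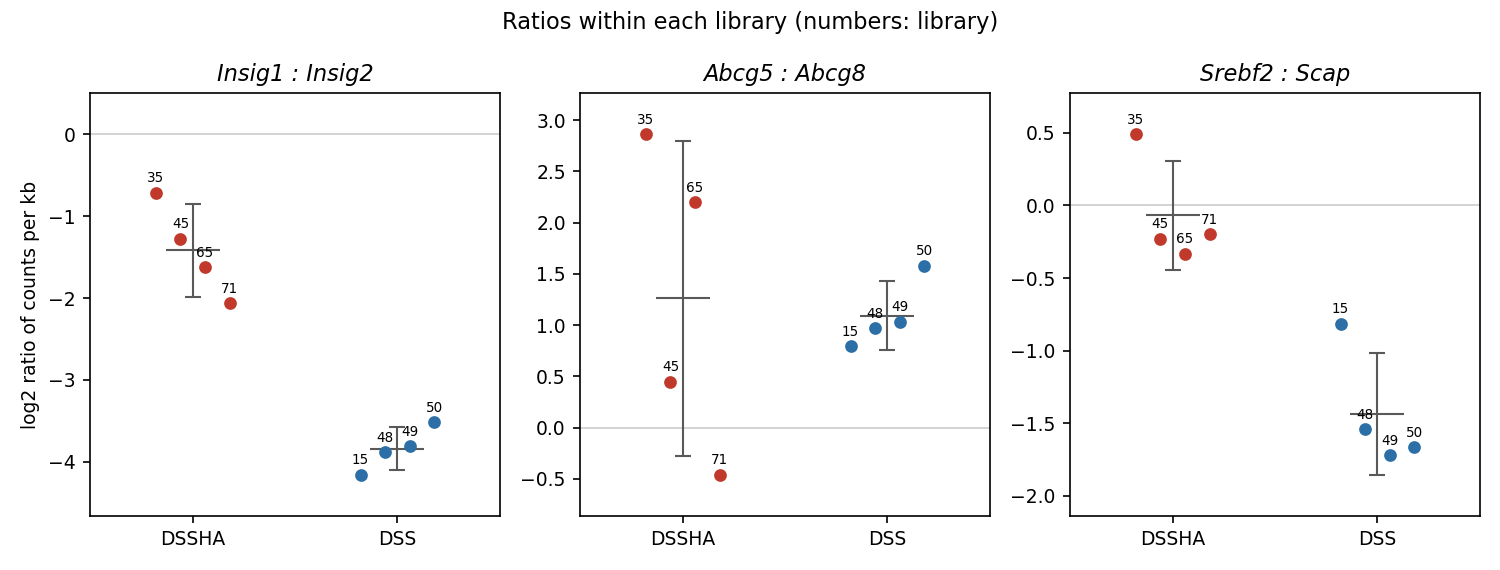
Log2 ratio of counts per kb within each library for Insig1 to Insig2, Abcg5 to Abcg8 and Srebf2 to Scap; points are libraries with their numbers, bars are the mean and SD of each group. The groups separate for Insig1 to Insig2 and for Srebf2 to Scap, and overlap for Abcg5 to Abcg8.

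Stard4 (ENSMUSG00000024378, chromosome 18, 33199355 to 33213862), the cytosolic sterol carrier, had 17.8, 30.1, 15.2 and 26.1 CPM in DSSHA libraries 35, 45, 65 and 71, against 9.60, 12.4, 8.15 and 7.30 CPM in DSS libraries 15, 48, 49 and 50. All DSSHA libraries lay above all DSS libraries, and the order of the DSSHA libraries was 45, 71, 35 and 65 from high to low, as it was for Insig1. Stard4 averaged 22.3 ± 6.96 CPM in the DSSHA group and 9.37 ± 2.24 CPM in the DSS group (SD, n = 4 each). Its log2 fold change of 1.25 ± 0.28 (95% interval 0.64 to 1.86) narrowly missed the threshold (edgeR adjusted p = 0.0593). It passed without library 35 (log2 fold change 1.34, edgeR adjusted p = 0.0119) or library 65 (1.39, 0.0422), without a filter on low counts (0.00726) and with DESeq2 (1.25, DESeq2 adjusted p = 0.00351), which called 4.13% of genes. It did not pass without DSSHA library 45 or 71 or without any 1 DSS library (edgeR adjusted p = 0.114 to 0.230). Nor did it pass with limma-voom (limma adjusted p = 0.0946) or limma on log2(FPKM + 1) (limma adjusted p = 0.0869). In the authors' deposited table Stard4 has a log2 fold change of 1.24 and an adjusted p of 0.00812. In the fit with the mitochondrial covariate it stood at 0.80 (edgeR adjusted p = 0.310).

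**Figure D3:**
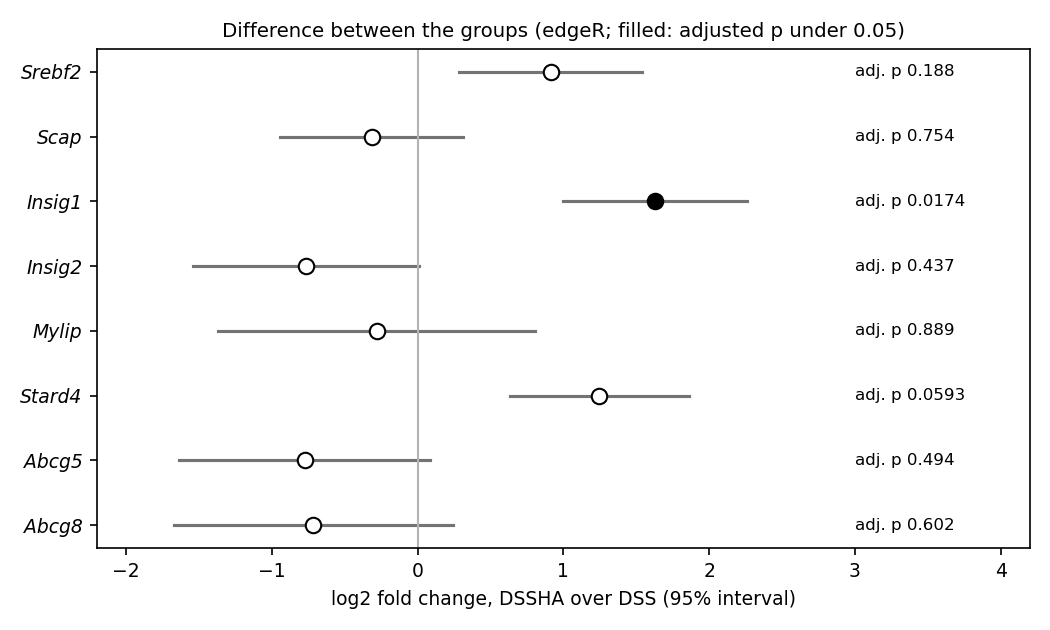
Log2 fold change of DSSHA over DSS for the 8 genes (horizontal axis) with 95% intervals from the edgeR fit and the adjusted p at the right; the filled point passed an adjusted p of 0.05. Insig1 is the filled point, at 1.63, with Stard4 at 1.25 and Srebf2 at 0.91.

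Mylip (ENSMUSG00000038175, chromosome 13, 45389742 to 45412022), the ubiquitin ligase, varied more within the groups than between them. Its level was 21.4, 7.41, 15.5 and 5.56 CPM in DSSHA libraries 35, 45, 65 and 71, against 5.42, 12.9, 17.5 and 25.0 CPM in DSS libraries 15, 48, 49 and 50. The highest library was 3.86 times the lowest in the DSSHA group and 4.61 times in the DSS group, and the groups overlapped throughout. The log2 fold change was -0.28 ± 0.50 (95% interval -1.37 to 0.81; edgeR adjusted p = 0.889), an interval of 0.387-fold to 1.75-fold. The sign was not stable: the value was 0.047 without DSS library 50 and 0.55 with the mitochondrial covariate.

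Abcg5 (ENSMUSG00000040505, chromosome 17, 84658234 to 84683011, minus strand) and Abcg8 (ENSMUSG00000024254, chromosome 17, 84676302 to 84700333, plus strand) run in opposite directions, each starting inside the annotated span of the other. Their annotated spans share 6710 bases on opposite strands, and the strand setting of the counting is not given, so reads from the shared stretch cannot be told apart and the counts of both are uncertain. Abcg5 had 12.8, 13.2, 17.3 and 5.04 CPM in DSSHA libraries 35, 45, 65 and 71, against 12.0, 16.7, 21.0 and 32.9 CPM in DSS libraries 15, 48, 49 and 50. Library 71 lay below, and DSS libraries 49 and 50 above, an otherwise shared range. The log2 fold change was -0.77 ± 0.39 (95% interval -1.63 to 0.09; edgeR adjusted p = 0.494), and -0.09 with the mitochondrial covariate.

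Abcg8, the partner subunit, had 2.41, 13.3, 5.19 and 9.60 CPM in DSSHA libraries 35, 45, 65 and 71, against 9.60, 11.8, 14.1 and 15.2 CPM in DSS libraries 15, 48, 49 and 50. Libraries 35 and 65, at 43 and 47 counts, lay below all DSS libraries, and the other two overlapped with them. The log2 fold change of -0.71 ± 0.43 did not pass (95% interval -1.67 to 0.24; edgeR adjusted p = 0.602); it was -0.41 without library 35 and -1.13 without library 45.

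Although the 2 subunits work as a pair, their transcripts did not keep 1 ratio across the DSSHA libraries. The Abcg5 to Abcg8 ratio per kb was 7.26, 1.37, 4.58 and 0.727 in DSSHA libraries 35, 45, 65 and 71, against 1.73, 1.96, 2.05 and 2.99 in DSS libraries 15, 48, 49 and 50. The DSSHA libraries spread on both sides of the DSS range. The mean log2 ratios were 1.26 ± 1.53 in the DSSHA group and 1.09 ± 0.34 in the DSS group (SD, n = 4 each), a difference of 0.17 that did not pass (exact permutation test, two-sided p = 0.857, also adjusted over the 3 ratios). The direction rested on single libraries: the difference was -0.36 without library 35 (adjusted exact permutation p = 0.629) and -0.14 without library 65. The difference of spread was not tested.

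Several of the levels followed the mitochondrial share of the libraries within the DSS group, where it was 55.8, 56.0, 69.9 and 79.1% in libraries 15, 48, 49 and 50. Mylip, Abcg5 and Abcg8 were higher, and Insig2 lower, in each DSS library with a larger share. As raw counts, Abcg5 had 193, 238, 175 and 221 counts in DSS libraries 15, 48, 49 and 50, whose nuclear genes together held 6170482, 6087086, 3791634 and 2722757 counts. In the DSSHA group the share was 42.2, 35.5, 73.0 and 30.2% in libraries 35, 45, 65 and 71. There Abcg5 was again highest in library 65 and lowest in library 71, but Mylip was highest in library 35. Abcg8 ran the other way, with 9.60 and 13.3 CPM in the DSSHA libraries of lowest share, 71 and 45, and 2.41 and 5.19 CPM in those of highest share, 35 and 65. Insig2 was higher in libraries 71 and 45 than in libraries 35 and 65, as in the DSS group, but lowest in library 35 rather than 65. Insig1 and Stard4 were lowest in the library of largest share in each group. They stood at 5.36 and 7.30 CPM in DSS library 50 and at 11.0 and 15.2 CPM in DSSHA library 65. With 4 libraries a group these orders are descriptions, and the part of the mitochondrial share in the differences between groups was tested only by the covariate fit given above.

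**Figure D4:**
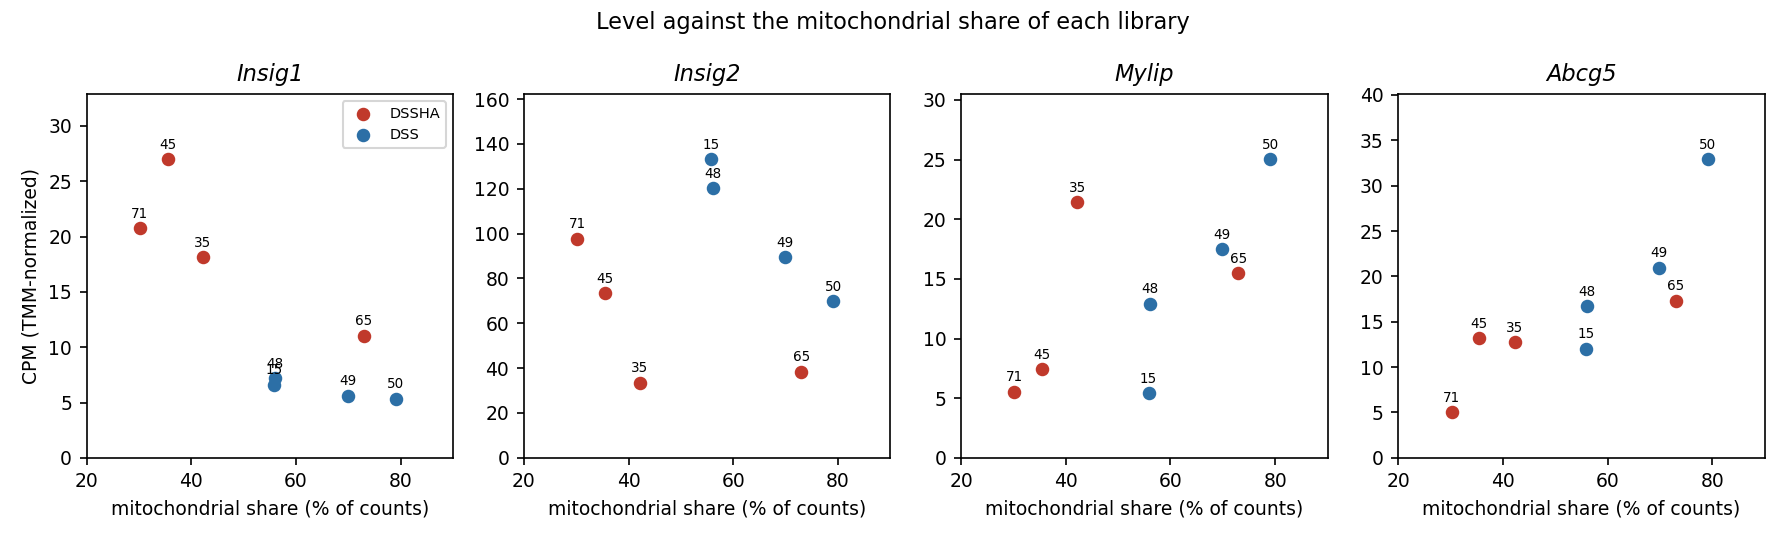
Level of Insig1, Insig2, Mylip and Abcg5 in CPM (vertical axes) against the share of each library's counts from mitochondrially encoded genes (horizontal axes, percent); points are libraries with their numbers. Within the DSS group Mylip and Abcg5 are higher and Insig2 lower at larger shares. All DSSHA points of Insig1 lie above all DSS points, and in each group Insig1 is lowest at the largest share.

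Compared per length, with the authors' FPKM values, the order of the genes differed between the groups. In the DSSHA group it was Insig2 at 17.1 ± 8.48, Insig1 at 6.08 ± 2.07, Abcg5 at 4.37 ± 1.89, Stard4 at 3.91 ± 1.21, Mylip at 3.77 ± 2.22, Scap at 2.39 ± 0.869, Srebf2 at 2.16 ± 0.435 and Abcg8 at 1.99 ± 1.26 FPKM (SD, n = 4). Insig2 exceeded Insig1 in all 4 of these libraries, which was the only pair of neighbours in the same order in every library. Insig1 stood above Abcg5 in 3 of the 4, but below it in library 65 (3.54 and 6.35 FPKM), and Scap stood below Srebf2 in library 35; the other neighbours changed places as well. In the DSS group Insig2 stood at 29.1 ± 8.38, Abcg5 at 7.44 ± 3.16, Mylip at 4.59 ± 2.45, Abcg8 at 3.31 ± 0.624, Scap at 2.96 ± 0.209, Insig1 at 1.97 ± 0.286, Stard4 at 1.64 ± 0.400 and Srebf2 at 1.14 ± 0.429 FPKM. Insig1 was thus sixth in the DSS group and stood below Scap in all 4 DSS libraries. Mylip and Abcg8 changed places in the DSS group in 1 library, Abcg8 and Scap in 2, and Stard4 and Srebf2 in library 15 (1.70 and 1.76 FPKM).

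The genes of the pathway around these 8 were read from 5 lists. Of sterol synthesis enzymes, the classical targets of SREBP2, 21 of 22 could be tested, of which 8 rose and 13 were not past the threshold, with a median log2 fold change of 1.20. Msmo1 (2.57 ± 0.37), Idi1 (4.33 ± 0.63), Hmgcs1 (2.02 ± 0.29), Fdft1 (1.66 ± 0.24), Mvk (2.56 ± 0.44) and Nsdhl (2.46 ± 0.44) had the smallest p (log2 fold changes with SE; edgeR adjusted p = 0.00663 to 0.0192). Without library 35, 10 of the 21 passed, all upward, now with Mvd and Sqle. Over all genes 308 passed without library 35, against 148 with it. Mvd, the mevalonate diphosphate decarboxylase gene, was at 0 counts in library 35 and at 8.49 to 12.7 CPM in the other 3 DSSHA libraries, against 0.298 to 2.18 CPM in the DSS group (log2 fold change 2.88, edgeR adjusted p = 0.00130 without library 35; 2.49 and 0.349 with it). Sqle, squalene epoxidase, stood at 1.98 (edgeR adjusted p = 0.0120) without library 35 and at 1.90 (0.0572) with it. In the fit with the mitochondrial covariate, where 55 genes passed in all, 2 of the 21, Idi1 and Msmo1, passed and the median was 0.79.

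None of the other 4 lists had a member past the test. In the list of SREBP2 cleavage, turnover and sterol-sensing degradation 0 of 12 passed (median -0.12), and the smallest p was that of Erlin2, an endoplasmic reticulum protein that takes part in sterol-regulated protein degradation (log2 fold change -1.21 ± 0.61, edgeR adjusted p = 0.489). The protease genes Mbtps1 and Mbtps2, which release SREBPs in the Golgi, had log2 fold changes of -0.17 and 0.90 and did not pass. In the list of lipoprotein uptake and lysosomal release of cholesterol 0 of 11 passed (median -0.54). Lrp1, a large endocytic receptor of the hepatocyte, had 135 ± 48.1 CPM in the DSSHA group and 372 ± 121 CPM in the DSS group, with no overlap (log2 fold change -1.47 ± 0.35, edgeR adjusted p = 0.0806). Scarb1, the receptor for high-density lipoprotein, had 41.9 ± 4.38 CPM in the DSSHA group and 79.3 ± 22.8 CPM in the DSS group (log2 fold change -0.92 ± 0.25, edgeR adjusted p = 0.122). Without library 35, where 308 genes passed in all, 3 of the 11 passed, in both directions. Lrp1 and the lysosomal lipase gene Lipa were lower in the DSSHA group (log2 fold changes -1.23 and -1.16). The remaining gene that passed, which is not reported here, was higher in the DSSHA group.

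Of 9 tested genes for sterol transfer between membranes, the group to which STARD4 belongs, none passed (median 0.29), and Osbpl9, an oxysterol-binding protein homologue, had the smallest p (log2 fold change 0.55 ± 0.28, edgeR adjusted p = 0.507). Stard5, a relative of Stard4, stood at 0.37 ± 0.21. In the list of LXR, sterol efflux, esterification and oxysterol enzymes 0 of 15 passed (median -0.33), led by the phospholipid exporter gene Abcb4 at -0.84 ± 0.23 (edgeR adjusted p = 0.129). Nr1h3, the gene of LXR alpha, was at 0.41 and Abca1, an LXR target that loads cholesterol onto apolipoprotein A-I, at -0.47, neither past the test.

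**Figure D5:**
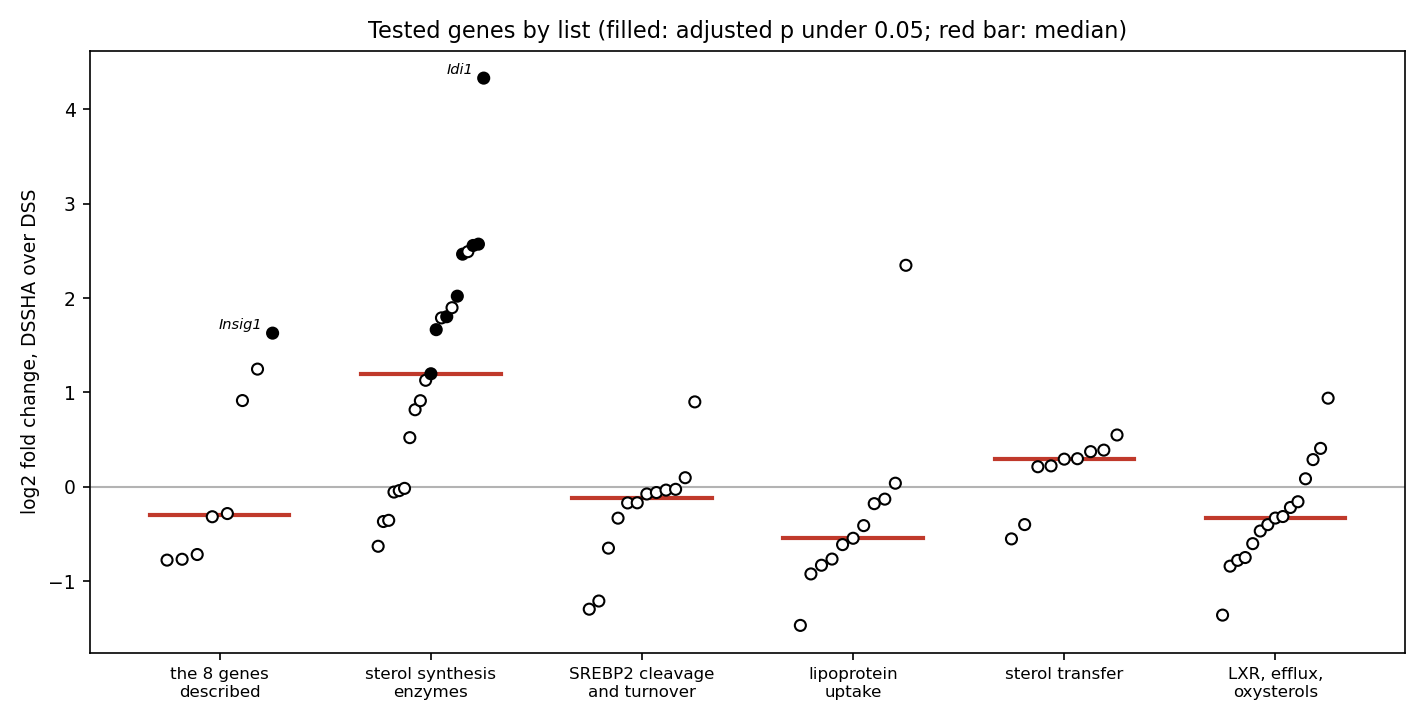
Log2 fold change of DSSHA over DSS (vertical axis) for each tested gene of the 8 described and of the 5 pathway lists; filled points passed an adjusted p of 0.05, red bars are list medians, and the called gene with the highest value in a list is named. Filled points appear among the 8, where Insig1 is named, and among sterol synthesis enzymes, where Idi1 stands at 4.33.

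The genes whose levels were most like that of Insig1 over the 8 libraries, by the root mean square difference of log2 CPM after centring each gene on its own mean, were Fdft1 (0.187), Gstm2 (0.189) and Dhcr7 (0.261), where the median over genes tested was 0.998. Fdft1 encodes squalene synthase, Dhcr7 the final enzyme of the Kandutsch-Russell route to cholesterol and Gstm2 a glutathione transferase; the log2 fold change was 1.66 for Fdft1, 1.20 for Dhcr7 and 1.52 for Gstm2. Since the profile matched includes the difference of Insig1 between the groups, these directions and the small distances follow from the choice and are no separate result. For Srebf2 the nearest were Chd1l (0.207), Acsm1 (0.237) and Parp3 (0.240), against a median of 0.782; these too were chosen on a profile that includes the group difference.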

How the data were processed

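The deposited table lists the authors' raw read counts per gene and library for 8 mouse liver RNA libraries, with the authors' FPKM values. These values were not scaled by the total counts of each library. Srebf2 had 209 counts and 1.58 FPKM in DSSHA library 35, with 12502300 counts in all. It had 144 counts and 2.20 FPKM in DSSHA library 65, with 12773827 counts in all. The table also holds the authors' group means (a size-factor-normalized signal, not used here), their log2 fold change (DSSHA over DSS), and their p-value and adjusted p-value from a tool not given in the sources used here. Builds GRCm38 and mm10 are listed in the submitters' processing notes; for aligner, counter and strand setting the entry is likewise not given in the sources used here. Gene names and coordinates are those of the table.

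After filterByExpr and TMM normalization, the robust quasi-likelihood F test of edgeR 4.0.16 (R 4.3.3) was applied to the counts, with p-values adjusted over all 11729 genes at a threshold of 0.05. CPM uses TMM library sizes; profiles used log2 CPM with a prior count of 2. Ratios used counts plus 0.5 per kb and an exact permutation test of the difference of means over 70 assignments. The fit was tested on simulated data. Depth was 12502300 to 16967839 counts per library, and no interval covers more than the spread between libraries.

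All 8 genes are named, and of each list up to 6 genes past the test, or else the one with the smallest p; some genes that this would name are not reported here. Mvd, Sqle, Mbtps1, Mbtps2, Lrp1, Scarb1, Lipa, Stard5, Nr1h3 and Abca1 were named after their values were seen. The genes and lists were chosen with earlier results of these data known. Alternatives were RLE normalization, no filter, DESeq2 1.42.0, limma-voom (limma 3.58.1), limma on log2(FPKM + 1), mitochondrial genes left out, the mitochondrial share as a covariate, 1 count added for the ratios, and leaving out each library.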

Additional observations from a re-analysis of the deposited data

Results flagged for a closer look

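The Srebf2 to Scap ratio of DSSHA library 35 stood apart from the other 3 libraries of its group, at 0.4904 on the log2 scale of counts per kb, where the others ran from -0.33 to -0.20. Its gap to the nearest library took 0.834 of the group's range, just past Dixon's 95% critical value for 4 libraries. This was the only such value among 24 groups examined, and chance gives about 1 in 20.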

How the results depend on the processing

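No paired analysis was possible because no number in the labels occurs in both groups. Of the 8 genes, 1 passed the test as reported; 2 passed without a filter on low counts and 2 with DESeq2 (Insig1 and Stard4), 0 with the mitochondrial share as a covariate, and 0 to 2 when 1 library was left out. Over all genes 148 passed as reported, against 320 without a filter, 484 with DESeq2, 55 with the covariate and 58 to 308 when 1 library was left out. The cause of these differences was not tested. With RLE normalization, limma-voom, limma on log2(FPKM + 1) or without mitochondrial genes, 1 of the 8 passed. The log2 fold change of Insig1 was 1.11 to 1.63 in the 7 other settings and 1.42 to 1.81 when 1 library was left out. That of Mylip changed sign with the covariate (0.55) and without DSS library 50 (0.047; range -0.69 to 0.047 when 1 library was left out). When 1 library was left out, the differences of the log2 ratios were 2.19 to 2.64 for Insig1 to Insig2, 1.18 to 1.58 for Srebf2 to Scap and -0.36 to 0.74 for Abcg5 to Abcg8, which was also negative (-0.14) without library 65. The lowest counts, where counting error is largest, were 43 and 47 for Abcg8 in DSSHA libraries 35 and 65 and 36 to 68 for Insig1, Srebf2 and Stard4 in DSS libraries 49 and 50.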
